A study of Homo sapiens with 42 samples.

Results

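Human satellite 2 (HSat2) is a family of short tandem repeats that fills the heterochromatin beside the centromeres of several human chromosomes, with its best known blocks on chromosomes 1 and 16. The HSat2 regions described here are all rows of the deposited count table whose name starts with hsat2_, which are 61 of 2523 named centromeric and satellite regions. The name of each gives its chromosome on the T2T-CHM13 assembly, a running number and the sequence subfamilies it holds (A1, A2 or B). DNA came from KG-1, an established acute myelogenous leukaemia line, and the question put by the design is where etoposide and mitoxantrone leave topoisomerase 2 on DNA. Cells were exposed for 1 h to 100 µM etoposide (4 replicas) or 20 µM mitoxantrone (3 replicas), and each replica had its own cells without drug, which were given vehicle. From each treatment of each replica a TOP2A pulldown, a TOP2B pulldown and an input library were sequenced, 42 libraries in all. No formaldehyde was used, so a pulldown depends on enzyme that is held on DNA by other means. The values come from 1 cell line, and the labels do not say whether replicas were separate cultures.

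Topoisomerase 2 passes one DNA duplex through a cut in another and so frees sister chromatids that are still wound together, and pericentromeric satellites are among the places where such links last longest in mitosis. TOP2A is the form tied to cell division, and TOP2B is also present in cells that do not divide. Etoposide and mitoxantrone are both poisons that hold the enzyme covalently on cut DNA, and mitoxantrone also slips between base pairs. HSat2 DNA is normally methylated and compact. In the ICF syndrome it loses methylation, and the heterochromatin that holds it on chromosomes 1 and 16 then stretches and breaks.

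The libraries held 23900 to 3207823 reads in named regions, with a median of 351072, and 57 to 18553 of these lay in HSat2. The widest 95% Wilson interval for the HSat2 share of a library spanned 0.183 percentage points, and the widest for the chromosome 1 part of a library's HSat2 reads spanned 25.1 points, in etoposide replica 1. These intervals cover counting error only. Reads set aside by the authors for low mapping quality made up 21.1% to 68.3% of a library, and the part of them that came from HSat2 is not given in the sources used here. Shares are relative to the other region reads, so fewer HSat2 reads and more reads elsewhere cannot be told apart. Each replica was sequenced within 1 order, with etoposide replicas 3 and 4 and mitoxantrone replica 2 in the same order, and reads were 38 bp in etoposide replica 1, 100 bp in mitoxantrone replica 1 and 50 bp elsewhere.

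The 61 HSat2 regions lay on 8 chromosomes. Chromosome 7 had 19 of them, chromosome 16 had 16, chromosomes 1 and 2 had 7 each, chromosome 22 had 5, chromosome 10 had 4, chromosome 17 had 2 and chromosome 9 had 1. Over all libraries 57 regions had reads, and hsat2_2_1, hsat2_7_8, hsat2_7_11 and hsat2_7_14 had 0. Of the 96769 HSat2 reads, chromosome 1 held 29.1%, chromosome 16 held 36.2% and the other 6 chromosomes together 34.7%. The 38 regions of those other chromosomes thus drew about as many reads as the 16 of chromosome 16. Region lengths were not used here, so a region with more reads is not shown to be read more often per base.

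On most chromosomes a single region held most of the HSat2 reads. On chromosome 1 hsat2_1_6, which holds subfamilies A2, A1 and B, had 22320 reads, or 79.3% of the chromosome's. It had reads in all 42 libraries, at 43.3 to 3350 CPM (reads scaled to a total of 1000000 region reads) with a median of 529. On chromosome 16 hsat2_16_15, of subfamily B, had 21632 reads, or 61.7% of the chromosome's, at 23.6 to 2395 CPM with a median of 485. Both regions were lowest in pulldowns of etoposide-treated cells of replica 1, the libraries with the shortest reads. Next on chromosome 1 were hsat2_1_3 (A1 and B) with a median of 97.3 CPM and hsat2_1_5 (B) with 15.1 CPM, and next on chromosome 16 were hsat2_16_11 and hsat2_16_12 (both B) with 35.1 and 25.2 CPM.

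Outside chromosomes 1 and 16 the top region held 91.1% of the reads on chromosome 17, 56.3% on chromosome 2, 53.3% on chromosome 10, 49.5% on chromosome 22 and 23.6% on chromosome 7, and chromosome 9 has only 1 region. The most read of these regions was hsat2_2_5 on chromosome 2, with 4457 reads and 5.69 to 382 CPM. It was followed in mean level by hsat2_17_2 (median 45.8 CPM), hsat2_22_3 (37.9 CPM), hsat2_7_17 (45.7 CPM), hsat2_10_3 (59.7 CPM) and hsat2_9_1 (32.1 CPM). Of these, hsat2_10_3 is the only one named with A1 and A2, and the rest are of subfamily B. Subfamily A was rare among the regions: 5 of 61 carried A1 or A2 in their names, hsat2_1_3, hsat2_1_4 and hsat2_1_6 on chromosome 1 and hsat2_10_2 and hsat2_10_3 on chromosome 10, and these 5 held 30.3% of the HSat2 reads. Only 4 regions had reads in every library, and a library had reads in 20 to 57 of them.

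The share of region reads that lay in HSat2 differed more between replicas than between pulldown and input. It ran from 0.0158% in the TOP2A pulldown of etoposide-treated cells of replica 1 to 0.852% in that of mitoxantrone-treated cells of replica 1, a 54.1-fold range over the 42 libraries. Within the etoposide-treated libraries the share was 0.0158% to 0.0867% in replica 1, 0.495% to 0.746% in replica 2, 0.287% to 0.610% in replica 3 and 0.0414% to 0.469% in replica 4. In the libraries of those replicas without drug it was 0.0327% to 0.0781%, 0.5684% to 0.777%, 0.103% to 0.140% and 0.0347% to 0.0648%. Replicas 1 and 2 thus stood an order of magnitude apart with and without etoposide. In the mitoxantrone series the share was 0.526% to 0.852% in treated libraries of replica 1, 0.054% to 0.144% in those of replica 2 and 0.0881% to 0.147% in those of replica 3, against 0.382% to 0.529%, 0.0492% to 0.271% and 0.552% to 0.578% without drug.

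**Figure D1:**
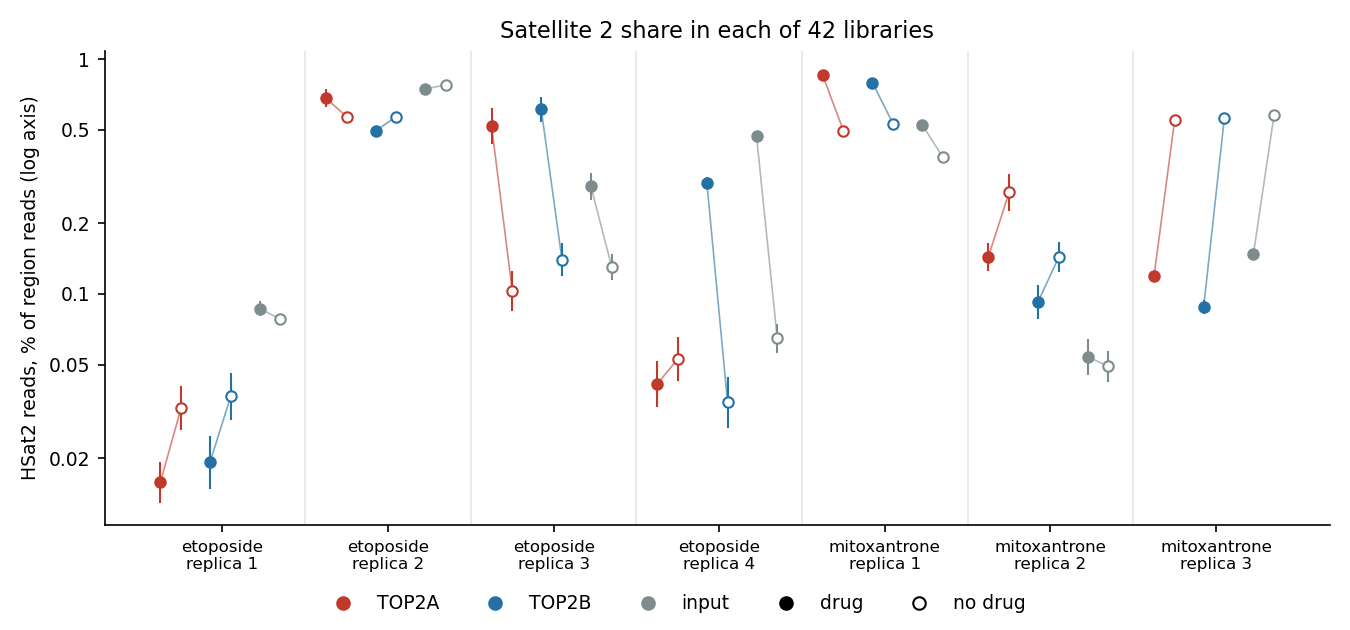
HSat2 reads as a percentage of region reads (log axis) in each of 42 libraries, by replica, with drug (filled) left of no drug (open) in TOP2A, TOP2B and input. Vertical bars are 95% Wilson intervals, which cover counting error only. The highest library is the TOP2A pulldown of mitoxantrone-treated cells of replica 1, at 0.852%.

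The division of HSat2 reads between chromosomes also varied between libraries. Chromosome 1 held 20.7% to 58.9% of a library's HSat2 reads (median 38.1%), chromosome 16 held 19.5% to 45.4% (median 35.4%) and the other chromosomes 15.1% to 41.4% (median 29.4%). The chromosome 1 part thus spanned the widest range of the 3. It was 38.5% to 50.9% in etoposide-treated libraries of replica 1, 23.8% to 54.5% in those of replica 2, 20.7% to 33.1% in those of replica 3 and 31.4% to 32.0% in those of replica 4, against 44.4% to 54.7%, 26.5% to 34.3%, 37.8% to 48.9% and 41.9% to 45.1% without drug. In the mitoxantrone series it was 25.7% to 31.0%, 38.5% to 58.9% and 41.6% to 56.3% in treated libraries of replicas 1 to 3, against 30.4% to 32.0%, 39.5% to 57.3% and 23.2% to 30.6% without drug. Treated and untreated libraries overlapped in etoposide replicas 1 and 2 and in mitoxantrone replicas 1 and 2, and they did not in the other 3 replicas.

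**Figure D2:**
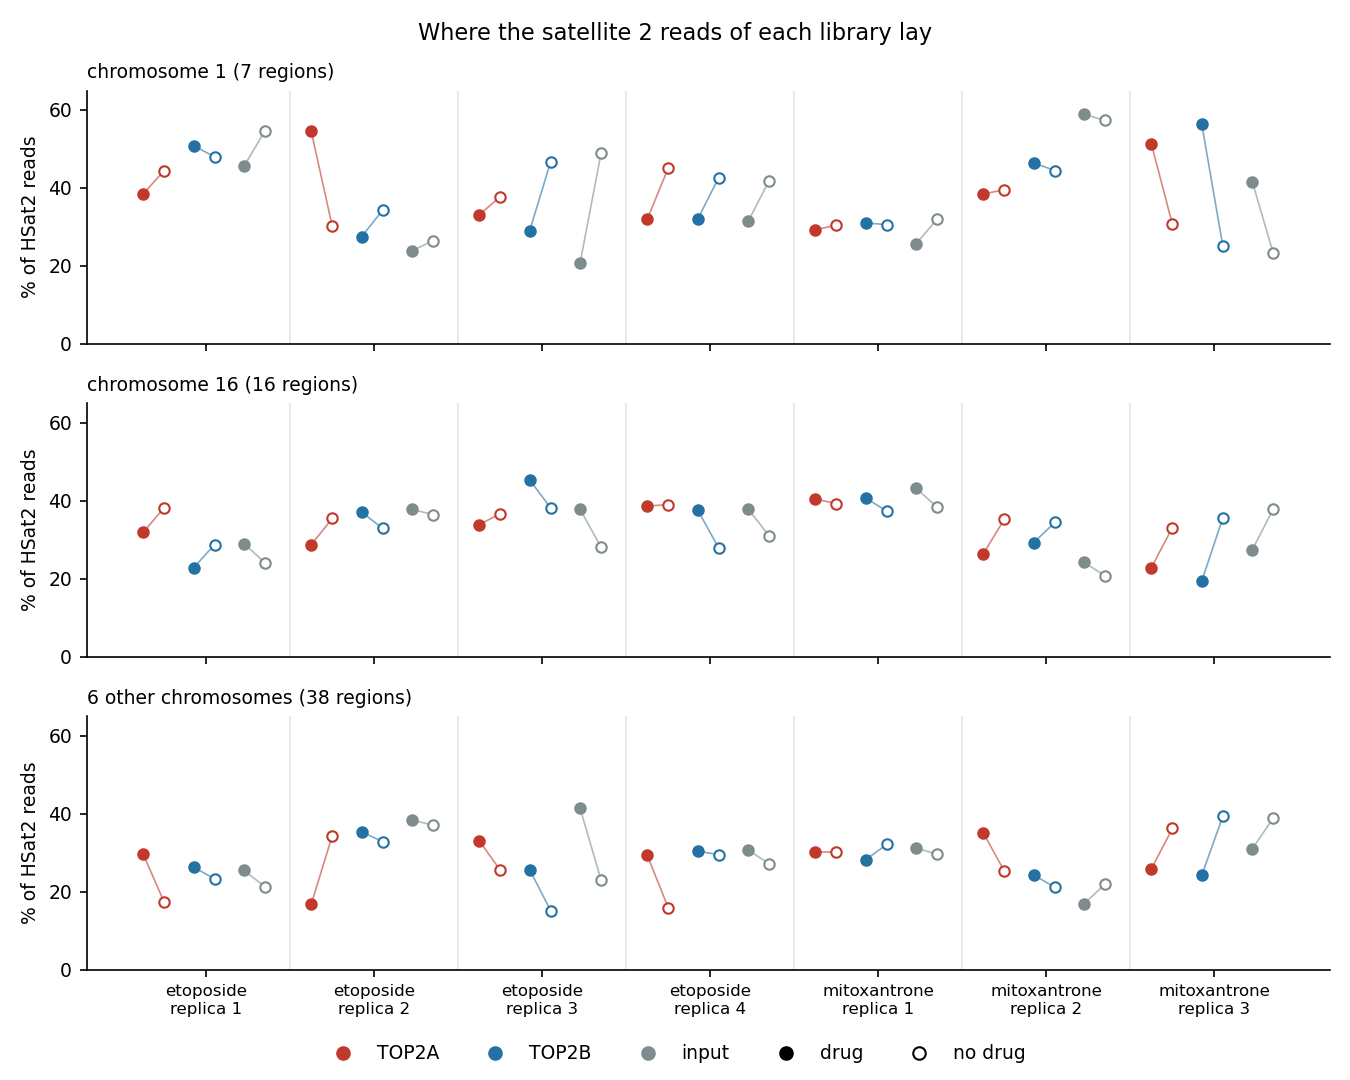
Part of each library's HSat2 reads that lay on chromosome 1, chromosome 16 and the other chromosomes, in percent, by replica, with drug (filled) left of no drug (open). In mitoxantrone replica 3 the chromosome 1 part was 41.6% to 56.3% with drug and 23.2% to 30.6% without.

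Etoposide went with no common direction of the HSat2 share. In the TOP2A pulldown, HSat2 took 0.0158%, 0.681%, 0.519% and 0.0414% of region reads in replicas 1 to 4 with etoposide, against 0.0327%, 0.5684%, 0.103% and 0.053% without drug. The log2 change within replicas was -1.05, 0.26, 2.33 and -0.35, with a mean of 0.30 (SD 1.46, n = 4). In the TOP2B pulldown the share was 0.0192%, 0.495%, 0.610% and 0.297% with etoposide, against 0.0367%, 0.569%, 0.140% and 0.0347% without drug. Here replicas 1 and 2 were lower with etoposide and replicas 3 and 4 higher, and the mean log2 change was 1.02 (SD 1.90, n = 4). The input libraries of replicas 3 and 4 were higher with etoposide too, at 0.287% and 0.469% against 0.131% and 0.0648%, whereas those of replicas 1 and 2 had log2 changes of 0.15 and -0.06. Replica 4 was the one in which the pulldowns parted, with a log2 change of -0.35 in TOP2A, 3.09 in TOP2B and 2.85 in input. Leaving out replica 3 moved the mean in TOP2A to -0.38, and leaving out replica 4 moved that in TOP2B to 0.33 and that in input to 0.41. With the input change taken off, the etoposide change was -1.20, 0.32, 1.20 and -3.21 in TOP2A and -1.08, -0.14, 0.99 and 0.23 in TOP2B, so neither pulldown differed from input in 1 direction.

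With mitoxantrone the share was lower in all 3 library kinds only in replica 3 of the 3 replicas. In the TOP2A pulldown, HSat2 took 0.852%, 0.144% and 0.119% of region reads in replicas 1 to 3 with mitoxantrone, against 0.494%, 0.271% and 0.552% without drug. In the TOP2B pulldown it took 0.794%, 0.0927% and 0.0881% with mitoxantrone, against 0.529%, 0.144% and 0.562% without drug. In input it took 0.526%, 0.054% and 0.147% with mitoxantrone, against 0.382%, 0.0492% and 0.578% without drug. Replica 1 was higher with drug in all 3 kinds, replica 3 was lower in all 3, and replica 2 was lower in the pulldowns and slightly higher in input. The mean log2 changes were -0.78 (SD 1.5) in TOP2A, -0.91 (SD 1.65) in TOP2B and -0.46 (SD 1.32) in input (n = 3 each), and without replica 3 they were -0.06, -0.02 and 0.30. In both series the spread between replicas was larger than the mean. Human satellite 3, the related repeat family read from other regions of the same libraries, moved in the same direction as HSat2 in 19 of the 21 pairs of drug and no-drug libraries. This was not particular to the related family. Monomeric alpha satellite, another repeat family, moved with HSat2 in every mitoxantrone pair, by -2.43, -2.71 and -1.93 in TOP2A, TOP2B and input of replica 3. With etoposide it also moved with HSat2, except in replica 2, where it moved opposite in all 3 kinds. These shares come from the same libraries and are set side by side without a test.

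**Figure D3:**
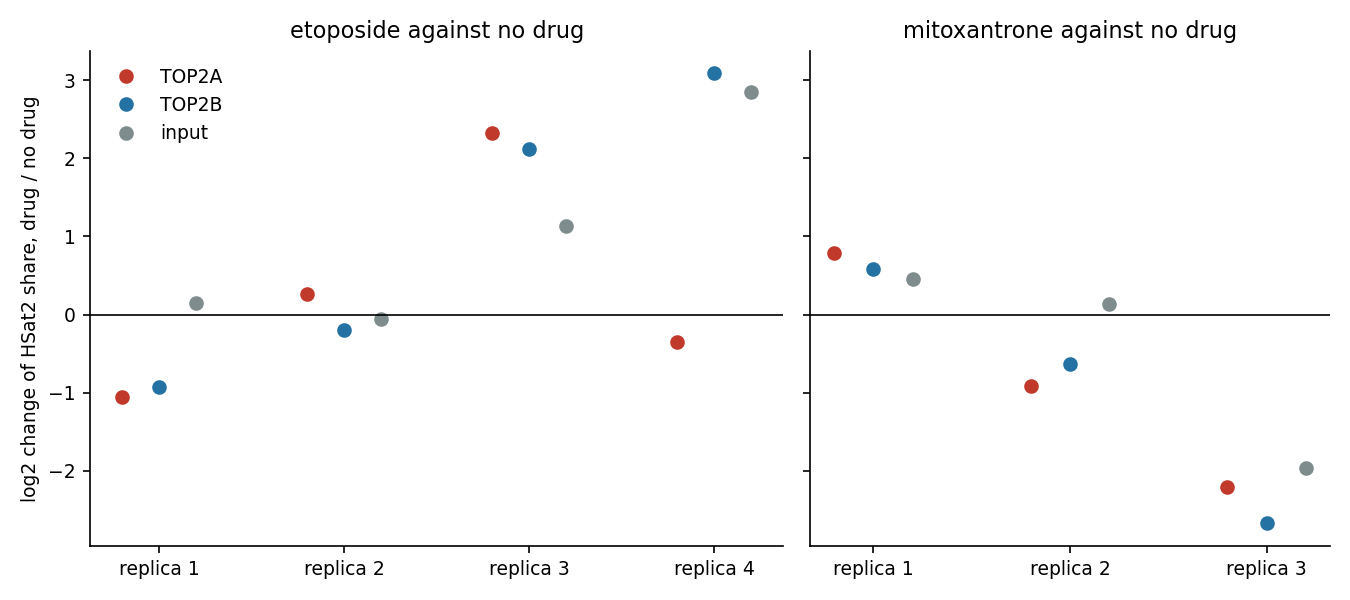
Log2 change of the HSat2 share of region reads with drug over no drug within each replica, for TOP2A, TOP2B and input, in the etoposide and mitoxantrone series. In mitoxantrone replica 3 all 3 kinds were lower with drug, by log2 changes of -2.21, -2.67 and -1.97, and in replica 1 all were higher.

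Reads on chromosomes 1 and 16 were set against HSat2 reads on the other chromosomes as a log2 ratio, and its change with drug was taken within each replica. In the etoposide series the ratio was lower with drug in 4 of 4 replicas in TOP2B (mean log2 change -0.34, SD 0.40) and in 4 of 4 in input (-0.47, SD 0.52), and in 3 of 4 in TOP2A (-0.31, SD 1.15). The changes ran from -0.93 to -0.04 in TOP2B and from -1.24 to -0.08 in input, so the smallest were near 0. Some rest on few reads: the TOP2B library of replica 4 without drug had 18 on the other chromosomes. The exception in TOP2A was replica 2, at 1.37, against -0.99, -0.52 and -1.11 in replicas 1, 3 and 4. Relative to input the etoposide change was 0.16 (SD 1.11) in TOP2A and 0.13 (SD 0.16) in TOP2B. The lower ratio in TOP2B was thus matched by input. In TOP2A the replicas spread too widely around input for the small mean to show a match. The changes were unequal on the 2 chromosomes. For chromosome 1 alone over the others the mean was -0.60 (SD 0.58) in TOP2B and -0.85 (SD 0.84) in input, and for chromosome 16 alone it was -0.13 (SD 0.44) and -0.07 (SD 0.24). Chromosome 16 was lower in 2 of 4 replicas in TOP2B and in 1 of 4 in input, so the common direction of the summed ratio was that of chromosome 1. With regions of subfamily B alone the ratio of chromosomes 1 and 16 to the others was lower in 3 of 4 replicas in TOP2B (-0.17, SD 0.54) and in 2 of 4 in input (-0.06, SD 0.31).

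The TOP2A pulldown of etoposide-treated cells of replica 2 stood apart in its HSat2 composition. Chromosome 1 held 54.5% of its HSat2 reads, against 23.8% to 34.3% in the other 5 libraries of the replica, and hsat2_1_6 reached 3350 CPM, its highest value in the series. The library was also unlike the rest of its replica in technical measures: it had 71055 region reads, against 589193 to 1202614 in the other 5, and 52.1% of its reads were set aside for low mapping quality, against 28.4% to 29.3%. The part of these differences in its HSat2 composition was not tested. Without this replica every TOP2A pulldown of the etoposide series had a lower ratio of chromosomes 1 and 16 to the others with drug.

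In the mitoxantrone series the ratio of chromosomes 1 and 16 to the others had no common direction. Its log2 change in replicas 1 to 3 was 0.00, -0.67 and 0.70 in TOP2A, 0.27, -0.26 and 1.02 in TOP2B, and -0.10, 0.45 and 0.50 in input. Replica 3 was higher with drug in all 3 kinds, and replica 2 was lower in the pulldowns and higher in input. The change in TOP2A minus that in TOP2B was -0.26, -0.41 and -0.32 in replicas 1 to 3, a mean of -0.33 (SD 0.07, n = 3). For this ratio it was the narrowest spread among the drug effects, but the value did not hold in another summary: the median over regions gave 0.01 (SD 0.58). Within replicas of both series, the ratio of chromosome 1 to chromosome 16 moved opposite to the total HSat2 share in 17 of 21 drug pairs and opposite to the human satellite 3 share in 17 of 21. The ratio of chromosome 1 to the other chromosomes moved opposite to the HSat2 share in 11 of 21, as did that of the subfamily A regions of chromosome 1 to the B regions of other chromosomes, and chromosome 16 over the others in 5 of 21. The 3 library kinds of a replica share their cells, so these are not 21 independent pairs.

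Mitoxantrone replica 3 had the most HSat2 reads of all replicas when both treatments are summed, with 858 to 3105 HSat2 reads in the treated libraries and 6941 to 18553 in those without drug. All 36 HSat2 regions with a mean of at least 10 reads over the series had a lower CPM with drug than without in each of the 3 kinds. That cut used all libraries, and this replica's libraries without drug gave 35582 of the 96769 HSat2 reads. Regions near the cut could thus pass it through the libraries where they were high. Such regions would also lower the medians of the B regions given below. The count of 36, these medians and the comparisons with them are thus only a description. The matching count over all regions of the table is not given here. The decrease was smaller than that of the median B region in 3 of the 4 regions named with A1 or A2 in TOP2A, and in all 4 in TOP2B and input. The 4 regions named with A1 or A2 among the 36 had a median log2 change of -1.79 in TOP2A, -1.66 in TOP2B and -1.26 in input, whereas the 32 of subfamily B alone had -2.97, -3.59 and -2.52. The exception was hsat2_10_2 on chromosome 10, whose change of -3.09 in TOP2A was below the median of the B regions. It had -2.61 in TOP2B and -1.79 in input. The region with the smallest decrease was hsat2_1_3 in TOP2A (-1.39) and TOP2B (-1.31) and hsat2_1_6 in input (-1.0), both on chromosome 1 and both with subfamily A. Among regions of subfamily B alone, the median on chromosomes 1, 16 and the others was -3.19, -2.95 and -2.97 in TOP2A, -3.12, -4.06 and -3.42 in TOP2B and -2.21, -2.89 and -2.45 in input.

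The larger chromosome 1 part with drug in this replica lay in the subfamily A regions of that chromosome. These regions held most chromosome 1 reads in either state, in TOP2A 648 of 663 with mitoxantrone and 2008 of 2127 without drug. Of the 648 reads, 545 were in hsat2_1_6. Most of any change of the chromosome 1 part thus had to lie in these regions. The reads of these regions over those of the B regions of other chromosomes changed by 1.31 in TOP2A, 2.18 in TOP2B and 1.35 in input on the log2 scale. The B regions of chromosome 1 over the same regions changed by 0.997-fold in TOP2A and by a log2 of 0.16 in TOP2B and 0.13 in input. They rest on few reads, 15, 10 and 54 with mitoxantrone against 119, 208 and 400 without drug. Chromosome 16, which has no subfamily A region in the table, changed over the other chromosomes by -0.05, -0.17 and -0.14. The 2 subfamily A regions of chromosome 10 changed over the B regions of other chromosomes by 0.30, 1.5 and 1.02, with 46, 46 and 133 reads with mitoxantrone and 289, 364 and 529 without drug. In this replica the summed reads of regions named with A1 or A2 thus decreased less than those of the B regions of other chromosomes. This held on both chromosomes that have such regions. Reads were counted by region, and hsat2_1_6 and hsat2_1_3 also hold subfamily B, so reads of A sequence were not told apart from reads of B. This is 1 replica, described after its values were seen and without a test, and mitoxantrone replicas 1 and 2 had changes of -0.09 and -0.93 in TOP2A, 0.13 and -0.15 in TOP2B and -0.42 and 0.28 in input for the subfamily A regions of chromosome 1 over the B regions of other chromosomes.

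**Figure D4:**
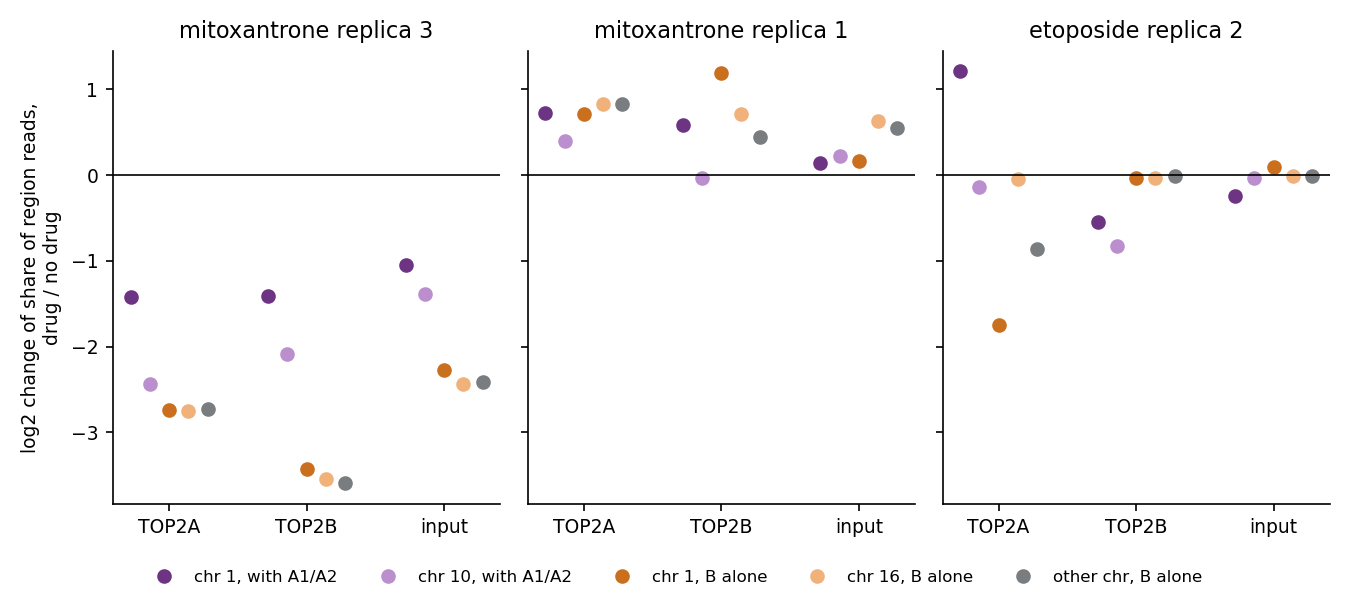
Log2 change with drug over no drug of the share of region reads in 5 sets of HSat2 regions, by subfamily and chromosome, in the 3 replicas with the most HSat2 reads (etoposide replica 2, mitoxantrone replicas 1 and 3), for TOP2A, TOP2B and input. In mitoxantrone replica 3 the subfamily A regions of chromosome 1 had the smallest decrease in each kind, with log2 changes of -1.42, -1.41 and -1.05.

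Etoposide replica 2, which like mitoxantrone replica 1 also had many HSat2 reads in both treatments, did not show this in TOP2B or input, where the subfamily A regions of chromosome 1 over the B regions of other chromosomes changed by -0.54 and -0.23. In its TOP2A pulldown, described above, they changed by 2.06 while the B regions of chromosome 1 changed by -0.89 over the same regions. The second value rests on 2 reads with etoposide, against 69 without drug. The subfamily A regions held 262 of the chromosome 1 reads with etoposide, against 942 without drug.

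No HSat2 region passed the threshold in the comparison of drug and no drug. Regions were tested with edgeR's quasi-likelihood test over the whole table, at a Benjamini-Hochberg adjusted p under 0.05. In the etoposide series 32 HSat2 regions could be tested among 1068, 3 on chromosome 1, 10 on chromosome 16 and 19 elsewhere, and 0 were called in TOP2A, TOP2B or input. The same held for all regions, of which 0% were called in each of these comparisons. In the mitoxantrone series 41 HSat2 regions were tested among 1416 (5, 12 and 24), and again 0 were called in each kind, beside 0% of all regions. At an unadjusted p under 0.05 there were 7, 7 and 0 regions in the etoposide comparisons of TOP2A, TOP2B and input and 5, 3 and 1 in those of mitoxantrone, and the only HSat2 region among them was hsat2_16_3, in TOP2B with etoposide (log2 fold change 3.13, SE 1.42, edgeR adjusted p = 0.996, mean 15.4 reads). These counts of all regions are far below the fraction of 0.05 of the regions tested that chance alone would give. The fits have no replica term, so differences between replicas counted as spread. Finding 0 calls therefore does not show that HSat2 levels were unchanged. DESeq2 also called 0 regions in these drug comparisons. For the drug effect in a pulldown minus input, and in TOP2A minus TOP2B, edgeR also called 0 HSat2 regions, beside 0% of all regions, in each of the 6 comparisons.

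In these fits, which have no replica term, most tested HSat2 regions lay on the same side of 0, but the single replicas went different ways. With etoposide the median log2 fold change of the tested HSat2 regions was -0.49 in TOP2A (8 higher, 24 lower), 0.67 in TOP2B (30 higher, 2 lower) and 0.58 in input (32 higher, 0 lower), and over all regions tested it was -0.05, 0.07 and 0.09. With mitoxantrone it was -0.46 in TOP2A (3 higher, 38 lower), -0.75 in TOP2B (2 higher, 39 lower) and -0.67 in input (1 higher, 40 lower), and over all regions -0.05, 0.02 and -0.05. Within replicas, counted over the 36 HSat2 regions with a mean of at least 10 reads, mitoxantrone replica 1 was on the opposite side, with 33 higher and 3 lower in TOP2A and 34 higher and 2 lower in both TOP2B and input, whereas replica 3 had 0 higher and 36 lower in each kind. Replica 2 had 9 higher and 27 lower in both pulldowns and 24 higher and 12 lower in input. With etoposide the numbers higher in replicas 1 to 4 were 12, 6, 36 and 12 of 36 in TOP2A, 9, 15, 34 and 36 in TOP2B and 25, 17, 32 and 36 in input. The direction of a whole fit was thus not shared by its replicas. In TOP2A with etoposide the median of regions in the fit was below 0 while the mean change of the summed share was above 0 (0.30). The 2 summaries differ in more than 1 way, since the share was compared within replicas and the fit was not. Within replicas 1 to 4 the median over the 36 regions was -1.22, -0.59, 1.99 and -0.23. The cause of the difference was not tested. By chromosome, the etoposide medians of the fit in TOP2A were 0.47 on chromosome 1, -0.97 on chromosome 16 and -0.42 on the others, and in TOP2B they were 0.44, 0.90 and 0.63. The members share libraries and are not independent. The cut for the 36 also leaned on mitoxantrone replica 3 without drug, as described above. These counts and the medians within replicas are thus a description.

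**Figure D5:**
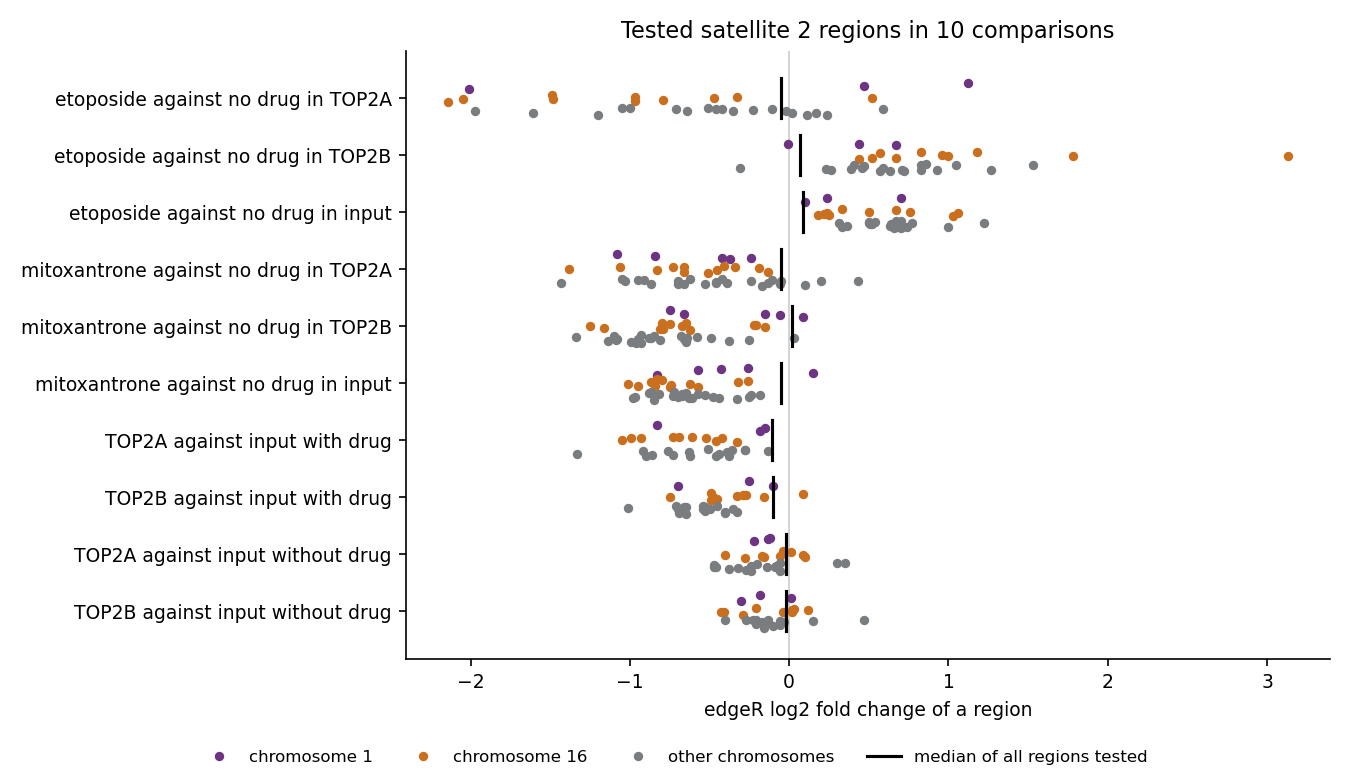
EdgeR log2 fold change of each tested HSat2 region in 10 comparisons, by chromosome 1, chromosome 16 and other chromosomes; the black bar is the median of all regions tested. None of the points passed an adjusted p under 0.05; with etoposide in input all 32 regions lay above 0 in this fit without a replica term, whereas in replica 2 alone 17 of 36 regions were higher with drug.

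The most read region of chromosome 1, hsat2_1_6, differed widely between replicas. In TOP2A pulldowns it had 43.3, 3350, 1381 and 110.4 CPM in replicas 1 to 4 with etoposide, against 129, 1356, 284 and 219.6 CPM without drug. In TOP2B pulldowns it had 74.2, 1067, 1487 and 790.4 CPM with etoposide, against 131, 1574, 516 and 102 CPM without drug. The groups overlapped in both pulldowns, and edgeR gave log2 fold changes of 1.12 (SE 0.99, adjusted p = 0.999) in TOP2A, 0.44 (SE 0.98, adjusted p = 0.996) in TOP2B and 0.24 (SE 0.96, adjusted p = 0.996) in input. With mitoxantrone it had 2103, 443 and 500.5 CPM in TOP2A pulldowns of replicas 1 to 3, against 1246, 887 and 1325 CPM without drug, and 1998, 377 and 399 CPM in TOP2B pulldowns, against 1392, 542 and 1060 CPM. These groups overlapped as well, with log2 fold changes of -0.24 (SE 0.64) in TOP2A, -0.15 (SE 0.64) in TOP2B and -0.26 (SE 0.64) in input, at edgeR adjusted p-values of 1.00.

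The most read region of chromosome 16, hsat2_16_15, had 36.4, 1689, 962 and 116 CPM in TOP2A pulldowns of replicas 1 to 4 with etoposide, against 109, 1280, 210.5 and 116 CPM without drug. In TOP2B pulldowns it had 23.6, 1123, 1461 and 715 CPM with etoposide, against 60.3, 1178, 424 and 51.2 CPM without drug. As for hsat2_1_6, the groups overlapped, and in replica 4 the TOP2B pulldown was higher with etoposide while the TOP2A pulldown was not. EdgeR gave log2 fold changes of 0.52 (SE 1.12) in TOP2A, 0.83 (SE 1.11) in TOP2B and 0.76 (SE 1.10) in input, at adjusted p-values of 0.999, 0.996 and 0.996. With mitoxantrone it had 2395, 235.5 and 186 CPM in TOP2A pulldowns, against 1381, 546 and 1028 CPM without drug, and 2334, 152 and 115 CPM in TOP2B pulldowns, against 1403, 311 and 1111 CPM. In replica 3 its level without drug was thus several times that with drug in both pulldowns, and replica 1 went the other way. The log2 fold changes of -0.19 (SE 1.18) in TOP2A, -0.21 (SE 1.18) in TOP2B and -0.26 (SE 1.17) in input had edgeR adjusted p-values of 1.00. The chromosome 2 region hsat2_2_5 had as few as 1 read in a library, and its log2 fold changes with etoposide were -0.42 (SE 1.22) in TOP2A, 0.93 (SE 1.13) in TOP2B and 0.70 (SE 1.08) in input, and with mitoxantrone -0.24 (SE 1.16), -0.49 (SE 1.15) and -0.57 (SE 1.14), with edgeR adjusted p-values of 0.996 to 1.00.

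Neither pulldown held a higher HSat2 share than input beyond the spread between replicas. Without drug the HSat2 share in TOP2A over input had log2 values of -1.25, -0.45, -0.34 and -0.29 in etoposide replicas 1 to 4 and 0.37, 2.46 and -0.07 in mitoxantrone replicas 1 to 3, a mean of 0.06 (SD 1.16, n = 7). TOP2B over input averaged -0.05 (SD 0.89, n = 7), with 1.54 in mitoxantrone replica 2 as its highest value. That replica had the lowest input share of its series without drug, 0.0492%, so both pulldowns stood high against it. With drug TOP2A over input averaged -0.49 (SD 1.82), lower in 4 of 7 replicas, and TOP2B over input -0.24 (SD 1.14), also lower in 4 of 7. These means pool the 2 drugs. In TOP2A the values were -2.45, -0.13, 0.86 and -3.49 in etoposide replicas 1 to 4 and 0.70, 1.41 and -0.31 in mitoxantrone replicas 1 to 3. In TOP2B they were -2.16, -0.59, 1.09 and -0.66, and 0.59, 0.78 and -0.74. The ratio of chromosomes 1 and 16 to the others in pulldown over input averaged 0.16 (SD 0.41) in TOP2A and 0.07 (SD 0.33) in TOP2B without drug, and 0.13 (SD 0.91) and 0.17 (SD 0.52) with drug. Chromosome 16 alone over the others was higher in TOP2A than in input in 6 of 7 replicas without drug (mean log2 0.40, SD 0.47) and in 3 of 7 with drug (0.999-fold, SD 0.50). The difference between those 2 states was not tested.

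By region, with the replica as a block, edgeR called 0 HSat2 regions in pulldown against input or TOP2A against TOP2B. Without drug 28 HSat2 regions were tested among 1028, and with drug 30 among 1073, and in each of these 6 comparisons 0% of all regions were called. The median log2 fold change of HSat2 without drug was -0.15 in TOP2A (5 higher, 23 lower) and -0.14 in TOP2B (7 higher, 21 lower), with -0.02 over all regions in both. With drug it was -0.56 in TOP2A (0 higher, 30 lower) and -0.49 in TOP2B (1 higher, 29 lower), with -0.11 and -0.10 over all regions. Most tested HSat2 regions thus lay below input in these fits, none of them past the threshold. The regions share libraries, and the fits with drug pool the 2 drugs. Their direction was not shared by all replicas. With drug the HSat2 share in TOP2A over input ran from -3.49 in etoposide replica 4 to 1.41 in mitoxantrone replica 2. In TOP2B it ran from -2.16 in etoposide replica 1 to 1.09 in etoposide replica 3. At an unadjusted p under 0.05 there were 150 regions in TOP2A and 71 in TOP2B without drug, none in HSat2, and 74 and 29 with drug, of which 1 was in HSat2: hsat2_7_15 in TOP2A, at -1.33 (SE 0.47, edgeR adjusted p = 0.610). DESeq2 called 20 of all regions in TOP2A against input without drug, and 0 in HSat2.

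The most read regions did not pass the threshold over input either. Without drug hsat2_1_6 had a log2 fold change over input of -0.12 (SE 0.28, edgeR adjusted p = 0.924) in TOP2A and -0.18 (SE 0.28, adjusted p = 0.982) in TOP2B. For hsat2_16_15 these were 0.10 (SE 0.31, adjusted p = 0.943) and 0.03 (SE 0.31, adjusted p = 0.999), and for hsat2_2_5 -0.24 (SE 0.28, adjusted p = 0.779) and -0.14 (SE 0.27, adjusted p = 0.995). With drug the values in TOP2A were -0.18 (SE 0.47) for hsat2_1_6, -0.52 (SE 0.41) for hsat2_16_15 and -0.51 (SE 0.40) for hsat2_2_5, at edgeR adjusted p-values of 0.999, 0.946 and 0.937.

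TOP2A and TOP2B pulldowns of the same cells were close to each other in most replicas. The HSat2 share in TOP2A over TOP2B without drug had log2 values of -0.17, -0.00, -0.44 and 0.61 in etoposide replicas 1 to 4 and -0.10, 0.92 and -0.03 in mitoxantrone replicas 1 to 3. With drug it averaged -0.25 (SD 1.19, n = 7), and its lowest value was -2.83 in etoposide replica 4, where TOP2A held 75 HSat2 reads and TOP2B 1060. Chromosome 1 over the other chromosomes was 0.00 (SD 0.65) in TOP2A relative to TOP2B without drug and 0.02 (SD 0.94) with drug. The tested HSat2 regions had a median log2 fold change of -0.02 in TOP2A over TOP2B without drug (all regions -0.02) and -0.14 with drug (all regions -0.01).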

How the data were processed

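The deposited values are read counts per named region in 42 libraries, with 5 tallies for reads given to no region. The submitters' processing notes name Trimmomatic 0.36, BWA 0.7.17, HTSeq with the version string 2.7.13, and the T2T-CHM13 assembly. The minimum mapping quality is not given in the sources used here. The counts were not normalised by the authors, as far as the values show.

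HSat2 regions were taken by name. CPM and shares used all region reads as the total, without the tallies, and log2 changes of shares and ratios were taken within replicas after adding 0.5 reads. Sums over members were described without a p-value. Single regions were tested on the whole table with edgeR 4.0.16 in R 4.3.3 (TMM, filterByExpr with a minimum count of 10, quasi-likelihood, two-sided, Benjamini-Hochberg adjustment over all regions tested). Each drug series was fitted on its own without a replica term, and pulldown against input in the 21 libraries of each treatment state, where the replica was a block. Alternatives were DESeq2 1.42.0, other normalisations, no filter, other denominators, a pseudocount of 5 reads and leaving out each replica. The edgeR fits were checked on simulated counts with planted changes and no replica differences. The simulated spread was set below that of the drug series, so this check does not show what those comparisons could detect.

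The members, lists and alternatives were chosen with earlier results of these data known. The regions named were, by mean CPM over all libraries, the 3 highest on chromosome 1, the 3 highest on chromosome 16 and the 6 highest elsewhere, and the highest of each set was given with its edgeR values. The single regions hsat2_16_3, hsat2_7_15, hsat2_7_18, hsat2_1_4 and hsat2_10_2, those without reads and the split by subfamily were named after their values were seen.

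The labels' replica field pairs the libraries. To check it, group means were taken off the log values of 1232 regions: the correlation of a treated library with its untreated partner was over 0.1 in 18 of 21 cases and ran from -0.461 to 0.92, lowest in input and TOP2B of etoposide replica 4. Among 54 comparisons within groups, no duplicate library was found. The labels name no separate cultures, so a p-value here reflects the spread of these libraries, which can be technical.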

Additional observations from a re-analysis of the deposited data

Results flagged for a closer look

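In 126 sets of 4 or 7 replica values, 12 had a highest or lowest value far from the rest by Dixon's test, which chance gives in about 1 of 20 sets, and the sets overlap. None of these was weighed against a cause.

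Etoposide replica 4 gave 5 of them. Its log2 change of the HSat2 share with etoposide in TOP2A minus TOP2B was -3.44, and its TOP2A over TOP2B share with drug was -2.83. For hsat2_16_15 its TOP2A over TOP2B value with drug was -2.59, for hsat2_2_5 its etoposide change in TOP2A minus input was -3.09, and for hsat2_1_6 its etoposide change in input was 2.33. Its TOP2A pulldown with etoposide held 75 HSat2 reads, and its libraries without drug 61 to 184.

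Etoposide replica 2 gave 3. With drug its TOP2A over TOP2B value was 1.44 for chromosomes 1 and 16 over the others and 2.06 for chromosome 1 over the others. The log2 CPM of hsat2_16_15 in its input without drug was 10.69, the highest of that group.

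Etoposide replica 3 gave 2: a TOP2B over input value with drug of 0.95 for chromosome 16 over the others, and an etoposide change of 1.51 for hsat2_2_5 in TOP2A, from 2 reads with drug and 3 without. Mitoxantrone replica 2 gave 2, both in TOP2A over input without drug: 3.18 for hsat2_16_15 and 3.41 for hsat2_2_5, the second from 3 reads in TOP2A and 2 in input.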

How the results depend on the processing

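No HSat2 region passed the threshold in any of 192 combinations of fit and setting, with a lowest adjusted p of 0.287 (hsat2_7_18, TOP2A against input without drug, without mitoxantrone replica 1). The mean changes of the HSat2 share moved by less than 1 SD under each alternative. For leaving out 1 replica this was fixed in advance, since dropping 1 value cannot move a mean by 1 SD of its values. The setting without a block left these means as they were by construction. With replica 3 left out, the etoposide mean in TOP2A changed sign, as given above. Counts of all regions called changed in TOP2A against input without drug: 0 as reported, 20 with DESeq2, 39 with no filter and 0 to 46 with 1 replica left out (46 without mitoxantrone replica 1, 1 without etoposide replica 3).

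With the replica as a block in the drug comparisons, or without it in the pulldown comparisons, no HSat2 call changed. Without the block hsat2_1_6 turned to 0.10 in TOP2A and 0.06 in TOP2B over input without drug, and to 0.43 and 0.09 with drug. With the block its etoposide values were 0.65, 0.82 and 0.45 in TOP2A, TOP2B and input. With DESeq2 hsat2_16_15 turned to -0.02 in TOP2B over input without drug.

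When 1 replica was left out, uncalled values of single regions changed sign. For hsat2_1_6 they ran from -0.02 to 1.48 with etoposide in TOP2B, -0.20 to 0.72 with etoposide in input, -1.10 to 0.16, -0.91 to 0.12 and -0.64 to 0.08 with mitoxantrone in TOP2A, TOP2B and input, -0.29 to 0.16 and -0.31 to 0.10 in TOP2A and TOP2B over input without drug, and -0.50 to 0.32 and -0.45 to 0.17 with drug. For hsat2_16_15 they ran from -1.79 to 0.31, -2.28 to 0.32 and -1.81 to 0.59 with mitoxantrone in TOP2A, TOP2B and input, and -0.14 to 0.26 and -0.15 to 0.20 in TOP2A and TOP2B over input without drug. For hsat2_2_5 they ran from -0.76 to 0.17 with etoposide in TOP2A, -1.24 to 0.36, -2.06 to 0.21 and -2.17 to 0.48 with mitoxantrone in TOP2A, TOP2B and input, and -0.37 to 0.03 in TOP2B over input without drug. Each sign change with mitoxantrone came from leaving out replica 3.

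For chromosomes 1 and 16 over the others, the etoposide change in TOP2B minus input (0.13) became -0.29 as a median over regions, -0.06 with chromosome 16 alone and -0.11 with subfamily B alone. The mitoxantrone change in TOP2A minus TOP2B (-0.33) became 0.01 as a median over regions, -0.24 without the most read region of each set, -0.42 and -0.20 with chromosome 1 or 16 alone, and -0.62 with the subfamily A regions of chromosome 1. The subfamily settings were added after seeing the data. The cause of these shifts was not tested. Depth limits the small regions most: in the library with 57 HSat2 reads, the B regions of chromosome 1 had 3.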

Other observations

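Human satellite 3 took more of the libraries than HSat2, 0.0638% to 2.34% of region reads with a median of 0.789%, and the ratio of the 2 families was steadier than either share. The HSat2 to satellite 3 ratio with etoposide over no drug had mean log2 changes of -0.10 (SD 0.31) in TOP2A, 0.05 (SD 0.31) in TOP2B and 0.09 (SD 0.16) in input over 4 replicas. With mitoxantrone over no drug these were -0.44 (SD 0.66), -0.50 (SD 0.66) and -0.42 (SD 0.49) over 3 replicas, and -0.06, -0.12 and -0.14 without replica 3. In mitoxantrone replica 3 satellite 3 took 0.734%, 0.624% and 0.867% of region reads in TOP2A, TOP2B and input with drug, against 1.49%, 1.67% and 1.73% without drug, so both families were lower there and HSat2 the more so. Monomeric alpha satellite was lower in these libraries too. It took 0.730%, 0.605% and 1.01% with drug, against 3.92%, 3.96% and 3.855% without drug. Over input without drug the HSat2 to satellite 3 ratio was 0.03 (SD 0.42) in TOP2A and 0.02 (SD 0.32) in TOP2B over 7 replicas. The names of the satellite 3 regions, like those of HSat2, were taken from the table, and the values are given without a test.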
